A study of Mus musculus with 18 samples.

Results

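The glutathione and Nrf2 redox genes described here are 48 genes of the 16675 on the array. They were chosen by symbol: every gene whose symbol opens with Gsta, Gstm, Gstt, Gstp, Gsto, Gstk, Gstz, Mgst, Gpx, Prdx or Txnrd followed by a digit, together with Gclc, Gclm, Gsr, Gss, Nqo1, Hmox1, Srxn1, Osgin1, Nfe2l2, Keap1, Cat and Sod2. Sod1, which the choice also lists, was not analysed here, nor were Gpx4, Gpx8, Gsta1, Gsta2, Gstp2, Gstp3 and Prdx6b. Of the 48 genes, 38 were read by 1 probe and 10 by several. RNA came from NMuMG cells, an epithelial line from normal mouse mammary gland. The cells spent 8 hr in 10 nM halofuginone (HF) or in 10 nM MAZ1310. MAZ1310 is an analog of HF that the authors describe as non-functional. Both groups were freshly plated in complete medium with serum and insulin, and both compounds were diluted in acidified DMSO; no untreated or vehicle arrays were analysed here. There were 3 cultures of HF cells and 3 of MAZ1310 cells, each measured on 3 technical arrays (18 arrays in all), and the comparison asks which transcripts differed after HF beyond what a related inactive compound gives. All cultures are of a single cell line, and in bulk RNA fewer cells expressing a gene and less RNA per cell cannot be told apart.

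Glutathione is a small thiol that cells make from glutamate, cysteine and glycine. Glutamate-cysteine ligase (a catalytic subunit, Gclc, and a modifier subunit, Gclm) and glutathione synthetase (Gss) build it, glutathione peroxidases and S-transferases spend it on peroxides and electrophiles, and glutathione reductase (Gsr) restores it with NADPH. Peroxiredoxins and thioredoxin reductases form a parallel thiol system, and catalase and the superoxide dismutases act on oxygen species directly. Many of these genes are targets of Nrf2 (gene Nfe2l2), a transcription factor that Keap1 holds back and marks for breakdown, and that binds the antioxidant response element (ARE) beside small Maf proteins when oxidants or electrophiles modify Keap1.

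The start regions of the members were searched for 3 short motifs, since ARE-bearing genes are the textbook output of Nrf2. RefSeq promoters (GRCm38.p6, 250 bases before to 50 bases after each start) were matched by symbol for 42 of the 48 members; Gsta4, Gsr, Gclc, Gstt2, Hmox1 and Prdx6 had none. On either strand, the ARE core TGACNNNGC was present for 9 of the 42 members (21.4%) and in 12.4% of all 32851 promoters, or for 14.0% of all genes with one. The AP-1 motif TGACTCA, which can overlap the ARE core, was present for 6 of 42 members (14.3%), in 5.20% of promoters and for 5.95% of genes, and TGATGNAA, the core of the C/EBP-ATF element, for 0 of 42 members, in 3.97% of promoters and for 4.51% of genes. Stretches around matches are printed for the called genes that held one, for Srxn1, the uncalled member with the smallest p, and for Prdx1, where the motifs overlap, each with 20 bases on either side and the match in capitals; all lie before the start and on the + strand of the assembly.
Osgin1, AP-1 match, chr8:119437030-119437076: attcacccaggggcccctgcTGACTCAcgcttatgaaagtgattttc
Mgst1, ARE core read on the other strand, chr6:138140451-138140499: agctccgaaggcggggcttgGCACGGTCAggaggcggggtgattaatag
Gsta3, ARE core, chr1:21240444-21240492: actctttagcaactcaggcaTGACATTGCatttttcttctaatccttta
Srxn1, AP-1 matches read on the other strand, chr2:152105402-152105505: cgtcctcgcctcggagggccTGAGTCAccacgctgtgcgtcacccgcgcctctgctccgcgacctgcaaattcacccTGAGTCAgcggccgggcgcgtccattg
Prdx1, ARE core and AP-1 overlapping, both read on the other strand, chr4:116685446-116685494: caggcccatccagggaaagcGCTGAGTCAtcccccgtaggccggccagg
The Osgin1 match begins 97 bases before the start, that of Mgst1 56 bases and that of Gsta3 121 bases before it. Srxn1 also held an ARE core after its start, outside the stretch printed. The Cat window held none of the 3 motifs. These matches are letters in a window, not measured binding sites.

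Of the redox genes, 6 differed between the treatments. Written with their log2 fold change, HF minus MAZ1310, Gsta4 (-1.92), Mgst1 (-1.49), Gsr (-1.10), Cat (-0.98) and Gsta3 (-0.83) fell in HF cells, and Osgin1 rose (1.73). That is 5 members lower and 1 higher at an adjusted p under 0.05, where 262 of all 16675 genes (1.57%) were lower and 242 (1.45%) higher, 3.02% together. The 5 are 10.4% of the members and the 1 is 2.08%. The tests were limma fits on log2 intensity over 3 HF and 3 MAZ1310 culture means, adjusted by Benjamini-Hochberg over all genes.

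Most members had lower values in HF cells. A log2 fold change below 0 was measured for 33 of 48 members, against 50.4% of all genes, and the median of the members was -0.20, against -0.00197 for all genes. In 12 members every HF culture lay below every MAZ1310 culture, and in 1 member every HF culture lay above; the shares over all genes were 9.85% and 11.2%. The other 35 members had overlapping cultures. At an unadjusted p under 0.05 there were 12 members lower and 1 higher, where all genes gave 8.53% lower and 7.94% higher. Of the 42 members that were not called, 28 had a log2 fold change below 0 (median -0.16), and 7 were lower and 0 higher at that unadjusted p. The members were brighter than most genes, 24 of 48 being among the brightest 25%, and all genes of that bright group gave larger shares: 3.21% called lower, 15.4% lower at an unadjusted p under 0.05 and 15.1% with all HF cultures below. Of the 24 bright members, 3 were called lower and 8 met each of the other counts. Members of 1 family share sequence and targets of Nrf2 share a regulator, so these are counts and not independent votes.

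**Figure D1:**
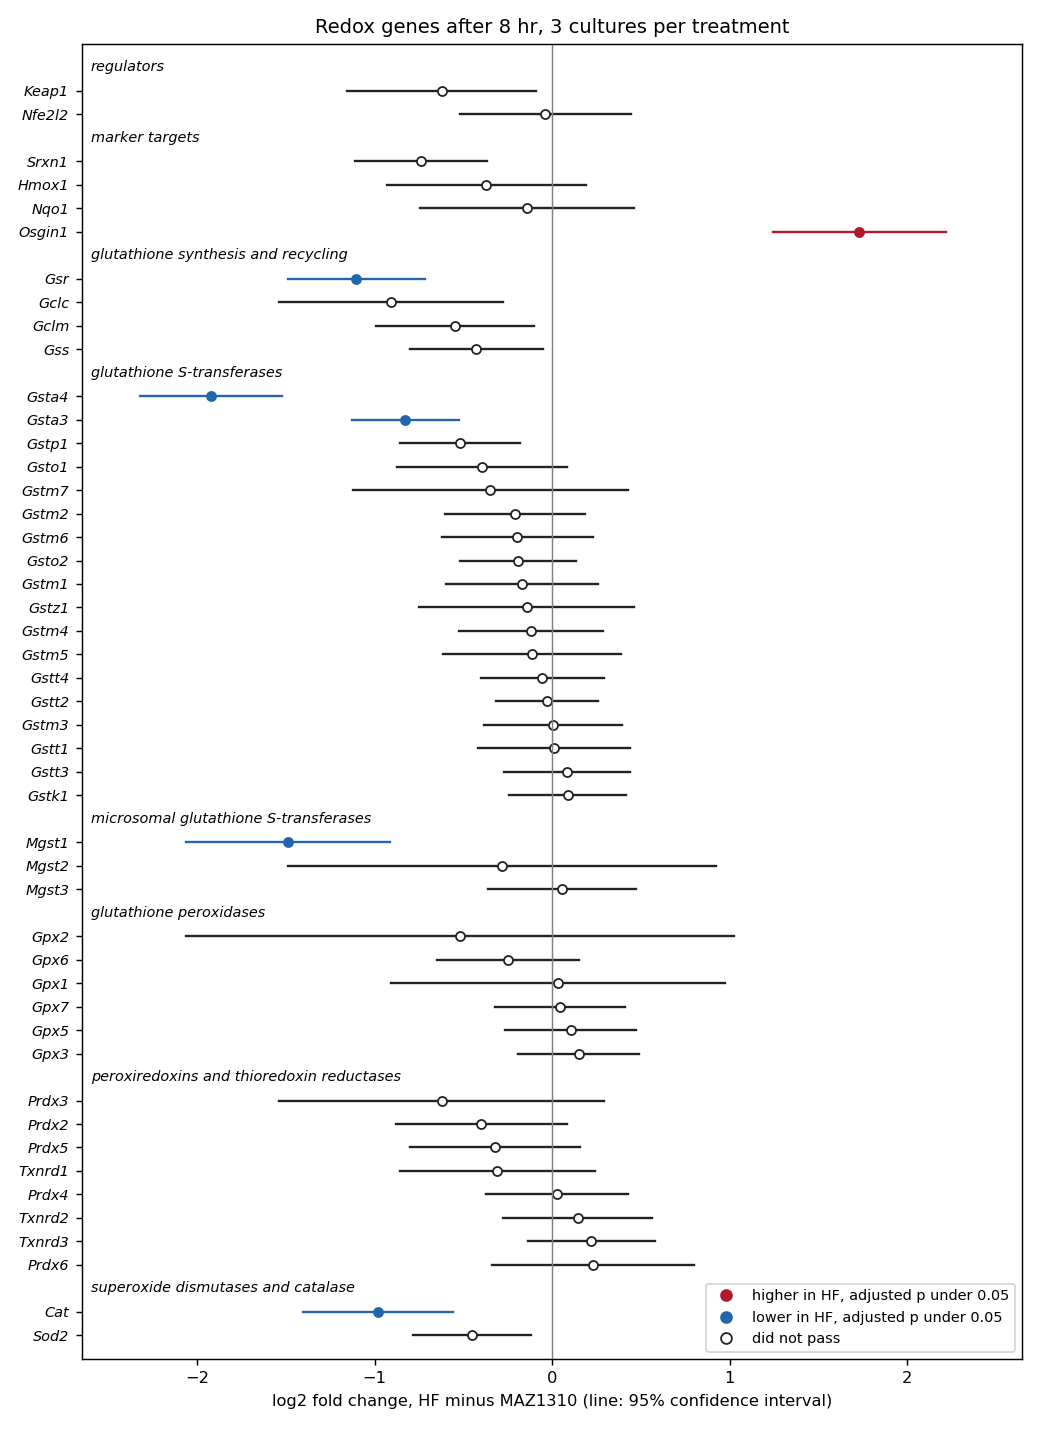
Log2 fold change (HF minus MAZ1310, horizontal axis) of each redox gene, grouped by role, with its 95% confidence interval over 3 cultures per treatment; filled red is higher and filled blue lower at an adjusted p under 0.05, open did not pass. Gsta4 at -1.92 and Osgin1 at 1.73 lie farthest out on either side; Prdx1, at the top value of the arrays, is not drawn.

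Osgin1, oxidative stress induced growth inhibitor 1, an Nrf2 target linked to growth arrest, was the only one of the 4 marker targets past the threshold, and the others had log2 fold changes below 0. Its log2 intensity (probe mMR026715, gene on chromosome 8) was 12.96, 13.35 and 13.08 in HF replicates 1 to 3, against 11.71, 11.02 and 11.47 in MAZ1310 replicates 1 to 3. No HF array of the 9 was as low as any of the 9 MAZ1310 arrays. The gene was 3.32-fold higher in HF (log2 fold change 1.73, standard error 0.207, limma adjusted p = 0.0129). The call was lost without HF replicate 2 (adjusted p = 0.0731) and without MAZ1310 replicate 3 (adjusted p = 0.0501), at log2 fold changes of 1.62 and 1.77.

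Srxn1, sulfiredoxin, which repairs overoxidized peroxiredoxins, gave 9.06, 9.33 and 9.37 in HF and 9.84, 9.93 and 10.20 in MAZ1310 cells. The cultures did not overlap, but the difference of -0.74 (standard error 0.159) had an adjusted p of 0.0587 by limma and did not pass. Its 3 probes gave -0.95, -0.62 and -0.37, all downward. The probe summary moved the result: the mean over probes gave -0.65 (adjusted p = 0.0486) and the brightest probe alone -0.37 (0.616).

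Hmox1, heme oxygenase 1, which breaks down heme, and Nqo1, a quinone reductase, are the most used reporters of Nrf2 activity, and neither separated the treatments. Hmox1 gave 13.15, 13.33 and 12.84 in HF and 13.76, 12.99 and 13.68 in MAZ1310 cells, with MAZ1310 replicate 2 inside the HF range. Technical array 2 of that culture read 12.14. Without it, an alternative chosen after seeing the data, the Hmox1 difference was -0.51 in place of -0.37 and did not pass (limma adjusted p = 0.190). Nqo1 gave 7.21, 7.39 and 6.78 in HF and 6.82, 7.69 and 7.30 in MAZ1310 cells. These are dim readings, with a mean of 7.20 where the median of all genes was 8.00. Their 95% confidence intervals ran from -0.93 to 0.19 for Hmox1 and from -0.75 to 0.46 for Nqo1. The change of Osgin1 minus that of Srxn1 was 2.47 (standard error 0.252), minus that of Hmox1 2.10 (0.142) and minus that of Nqo1 1.87 (0.478). In an exact two-sided permutation test over cultures each of these differences had p = 0.1, the smallest that 3 against 3 cultures allow. Over the 10 pairs of members compared, 9 had that p, and it adjusts to 0.111.

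The 2 regulators did not pass. Nfe2l2, which encodes Nrf2, gave 13.65, 13.32 and 12.91 in HF and 13.20, 13.47 and 13.33 in MAZ1310 cells, a difference of -0.04 with a 95% confidence interval of -0.52 to 0.44. Keap1 gave 9.79, 9.90 and 10.38 in HF and 10.28, 10.74 and 10.92 in MAZ1310 cells. Only HF replicate 3 reached into the MAZ1310 range, and the difference of -0.62 (standard error 0.226) had a limma adjusted p of 0.223. The arrays read transcript, and Nrf2 protein is set largely by its breakdown, which they do not measure. The change of Keap1 minus that of Nfe2l2 was -0.58 (standard error 0.418, exact permutation p = 0.3).

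Of the 4 genes of glutathione synthesis and recycling, 1 passed the test, Gsr, and Gclc, Gclm and Gss did not. All 4 lay lower in every HF culture than in any MAZ1310 culture. That separation was found for 9.85% of all genes, and for 15.1% of the bright group that holds Gsr, Gclc and Gclm. Gsr (probe mMC009901, chromosome 8) gave 12.27, 12.73 and 12.44 in HF and 13.43, 13.69 and 13.62 in MAZ1310 cells, and all 9 HF arrays lay below all 9 MAZ1310 arrays. It was 2.15-fold lower in HF (log2 fold change -1.10, standard error 0.163, limma adjusted p = 0.0226). With 1 culture left out the call held only without MAZ1310 replicate 1, and the adjusted p ran from 0.0356 to 0.0941 while the change stayed between -1.23 and -0.997.

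Gclc gave 10.57, 10.83 and 11.03 in HF and 11.24, 12.27 and 11.64 in MAZ1310 cells. The gap between the nearest cultures was small beside the spread of the MAZ1310 cultures, and the difference of -0.91 (standard error 0.269) did not pass (limma adjusted p = 0.136). With the 18 arrays fitted and the culture as a random block it did, at an adjusted p of 0.0269. Gclm, the modifier subunit of the same enzyme, gave 13.47, 13.47 and 13.72 in HF and 13.75, 14.37 and 14.19 in MAZ1310 cells, a difference of -0.55 (adjusted p = 0.201). HF replicate 3 and MAZ1310 replicate 1 were nearly level. Gss gave 8.88, 8.77 and 9.20 in HF and 9.26, 9.36 and 9.50 in MAZ1310 cells, a difference of -0.43 (adjusted p = 0.235). The change of Gsr minus that of Gss was -0.68 (standard error 0.231) and the change of Gclc minus that of Gclm -0.36 (0.162), each with an exact permutation p = 0.1.

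**Figure D2:**
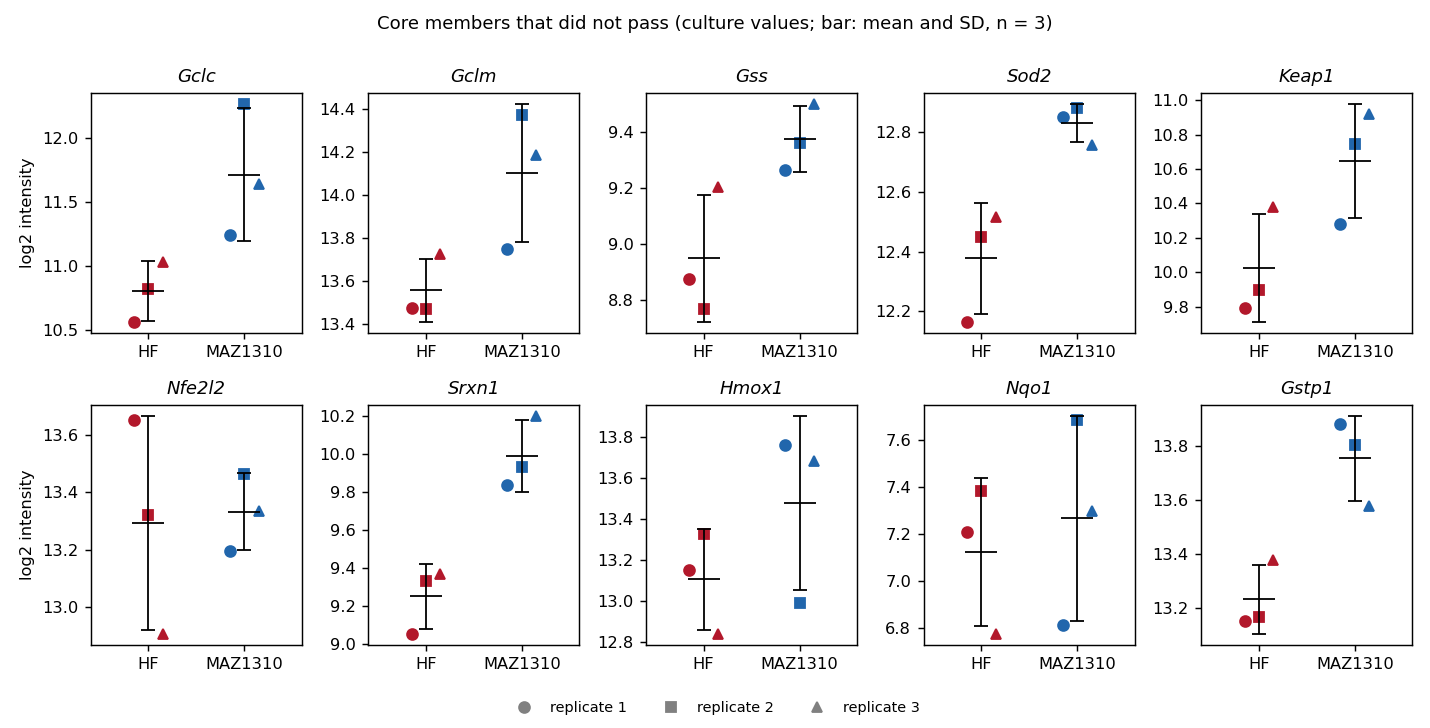
Log2 intensity (vertical axis, its own scale in each panel) of 10 core redox genes that did not pass, in HF (left) and MAZ1310 (right) cultures; symbols mark the replicate number, and bars the mean and SD of 3 cultures. Gclc, Gclm, Gss, Sod2, Srxn1 and Gstp1 have no overlap between the treatments, while Keap1, Nfe2l2, Hmox1 and Nqo1 do.

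Glutathione S-transferases join glutathione to electrophiles, and both alpha-class genes measured, Gsta4 and Gsta3, fell in HF cells while no other cytosolic or kappa class gene passed. Gsta4, whose enzyme clears the lipid peroxidation product 4-hydroxynonenal, gave 12.33, 12.44 and 12.71 in HF and 14.18, 14.45 and 14.61 in MAZ1310 cells (probe mMC012851, chromosome 9). The highest of its 9 HF arrays read 12.93 and the lowest of its 9 MAZ1310 arrays 14.06. It was 3.79-fold lower (log2 fold change -1.92, standard error 0.170, limma adjusted p = 0.00545). It was the one member whose call held with any of the 6 cultures left out, with adjusted p from 0.00890 to 0.0408.

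Gsta3 (probe mMC011094, chromosome 1) gave 6.73, 6.72 and 6.86 in HF and 7.48, 7.61 and 7.70 in MAZ1310 cells. These are dim readings, the HF ones just above 6.60, the bound of the dimmest 25% of genes on these arrays. The culture means of a treatment lay close together, and the gene was 1.77-fold lower (log2 fold change -0.83, standard error 0.128, limma adjusted p = 0.0256). Single arrays overlapped, the highest of its 9 HF arrays reading 7.34 and the lowest of its 9 MAZ1310 arrays 7.03. The call held only without MAZ1310 replicate 1 when a culture was left out (adjusted p from 0.0403 to 0.104), and was lost with the median over technical arrays (0.0508). The change of Gsta4 minus that of Gsta3 was -1.10 (standard error 0.0960, exact permutation p = 0.1).

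Gstp1, the pi-class transferase abundant in many epithelia, gave 13.15, 13.17 and 13.38 in HF and 13.88, 13.80 and 13.58 in MAZ1310 cells. The cultures did not overlap, and the difference of -0.52 (standard error 0.144) did not pass (limma adjusted p = 0.114). Gsto1, an omega-class enzyme, read the top value of the array on 5 of 9 MAZ1310 arrays and 0 of 9 HF arrays, so its measured difference of -0.40 (adjusted p = 0.426) meets a ceiling on the MAZ1310 side. The 7 mu-class genes, which stand together on chromosome 3, had 0 calls, with log2 fold changes from -0.35 to 0.00393 and a median of -0.17. The lower limit is Gstm7, set by 1 MAZ1310 array; without that gene the class began at -0.21, which is Gstm2, whose 2 probes gave -0.73 and 0.32. The 4 theta-class genes, on chromosome 10, had 0 calls and ran from -0.05 to 0.08. At an unadjusted p under 0.05 both families also had 0 genes. All genes gave 3.02% called and 16.5% at that unadjusted p, so these small counts do not set either class apart. The mu and theta classes held all but 1 (Gpx5) of the 8 members among those dimmest genes, and the deposited values carry no detection call. Genes of 1 class are close in sequence, and whether their probes cross-hybridize was not tested.

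The microsomal transferases sit in membranes and also reduce lipid peroxides, and 1 of the 3, Mgst1, fell. Mgst1 (probe mMC006244, chromosome 6) gave 8.71, 8.90 and 9.55 in HF and 10.26, 10.66 and 10.71 in MAZ1310 cells. All 9 HF arrays lay below all 9 MAZ1310 arrays, although HF replicate 3 stood above the other HF cultures. The gene was 2.80-fold lower (log2 fold change -1.49, standard error 0.246, limma adjusted p = 0.0296), and the call held without HF replicate 3 and without MAZ1310 replicate 1 only, with adjusted p from 0.0242 to 0.116. Mgst3 gave 11.58, 11.17 and 11.54 in HF and 11.52, 11.47 and 11.12 in MAZ1310 cells, with overlap throughout. Its median over 3 probes differed by 0.06, although the single probes gave -0.23, -0.58 and -0.02, so no direction is given for it. The change of Mgst1 minus that of Mgst3 was -1.54 (standard error 0.357, exact permutation p = 0.1).

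Mgst2 was singled out after its values were seen, because 1 array set its mean in MAZ1310 cells. Its cultures gave 10.86, 10.78 and 11.13 in HF and 11.57, 12.12 and 9.91 in MAZ1310 cells, and the difference was -0.28 (standard error 0.513, limma adjusted p = 0.899). The low MAZ1310 replicate 3 rests on technical array 2, which read 5.43 where the other 2 arrays of that culture read 11.94 and 12.37. Without that array, as an alternative chosen after seeing the data, Mgst2 was at -1.03 with an adjusted p of 0.0435. The median over technical arrays gave -0.93 (0.0931) and leaving out MAZ1310 replicate 3 also -0.93 (0.134), neither past the threshold.

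Catalase (Cat, probe mMC006605, chromosome 2), the peroxisomal enzyme that splits hydrogen peroxide, fell in HF cells. Its log2 intensity was 12.51, 12.98 and 12.46 in HF and 13.81, 13.56 and 13.54 in MAZ1310 cells. No culture of HF reached the MAZ1310 cultures, although single arrays overlapped (highest HF array 13.29, lowest MAZ1310 array 12.74). In every culture Cat read highest on technical array 1, which widens these ranges. The gene was 1.98-fold lower (log2 fold change -0.98, standard error 0.180, limma adjusted p = 0.0390). This was the least secure of the 6 calls: it was lost with any culture left out (adjusted p from 0.0699 to 0.115), with the median over technical arrays (0.0643) and with the culture as a random block (0.0583). Sod2, the mitochondrial superoxide dismutase, gave 12.17, 12.45 and 12.52 in HF and 12.85, 12.88 and 12.76 in MAZ1310 cells, without overlap. Its difference of -0.45 (standard error 0.142) did not pass (adjusted p = 0.162). The change of Cat minus that of Sod2 was -0.53 (standard error 0.192, exact permutation p = 0.1).

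**Figure D3:**
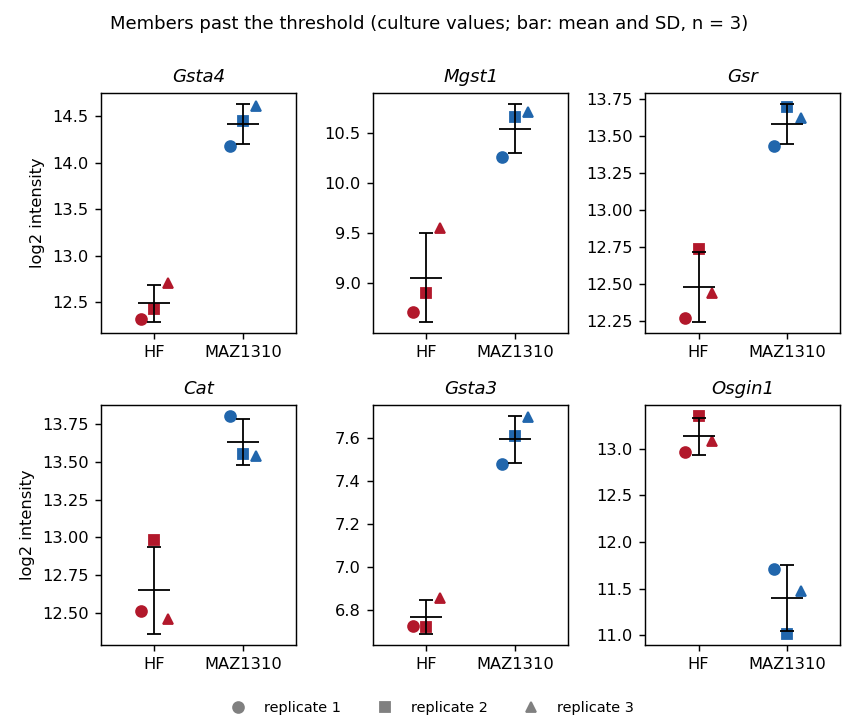
Log2 intensity (vertical axis, its own scale in each panel) of the 6 redox genes past an adjusted p of 0.05, in HF (left) and MAZ1310 (right) cultures; symbols mark the replicate number, and bars the mean and SD of 3 cultures. HF cultures lie below the MAZ1310 cultures for Gsta4, Mgst1, Gsr, Cat and Gsta3, and above them for Osgin1.

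Glutathione peroxidases reduce hydrogen peroxide or lipid peroxides at the cost of glutathione. None of the 6 passed, and 0 had an unadjusted p under 0.05. All genes gave 3.02% and 16.5%, so with this few genes the counts do not set the family apart. Gpx1, the main cytosolic form, gave 14.03, 13.43 and 12.41 in HF and 13.56, 13.36 and 12.85 in MAZ1310 cells. Gpx2, the epithelial form and a known Nrf2 target, gave 9.75, 8.87 and 7.53 in HF and 10.27, 9.20 and 8.24 in MAZ1310 cells. In both genes and under both treatments replicate 1 was the highest and replicate 3 the lowest. The SD of Gpx2 was 1.12 over HF and 1.01 over MAZ1310 cultures, the widest pooled spread of any member, and its difference of -0.52 had a limma adjusted p of 0.832. With the replicate number as a block the same difference had an adjusted p of 0.0476, but the labels do not say what same-numbered cultures share.

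The 9 peroxiredoxins and thioredoxin reductases had 0 calls and 0 genes at an unadjusted p under 0.05. Over all genes the shares were 3.02% and 16.5%, so with this few genes the counts do not set the group apart. Prdx1, a cytosolic peroxiredoxin and known Nrf2 target, sat at the top value of the array on 8 of 9 HF and 9 of 9 MAZ1310 arrays, so its saturated probe gives no fold change. The other 8 genes had a median log2 fold change of -0.14, 4 of them being below 0. Prdx3, the mitochondrial form, gave 10.42, 9.91 and 9.15 in HF and 11.05, 9.89 and 10.40 in MAZ1310 cells. Its difference of -0.62 (standard error 0.390, limma adjusted p = 0.549) lay within the spread of the cultures. One of its HF arrays, technical array 2 of replicate 3, read 7.53 where the other arrays of that culture read 10.42 and 9.49.

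**Figure D4:**
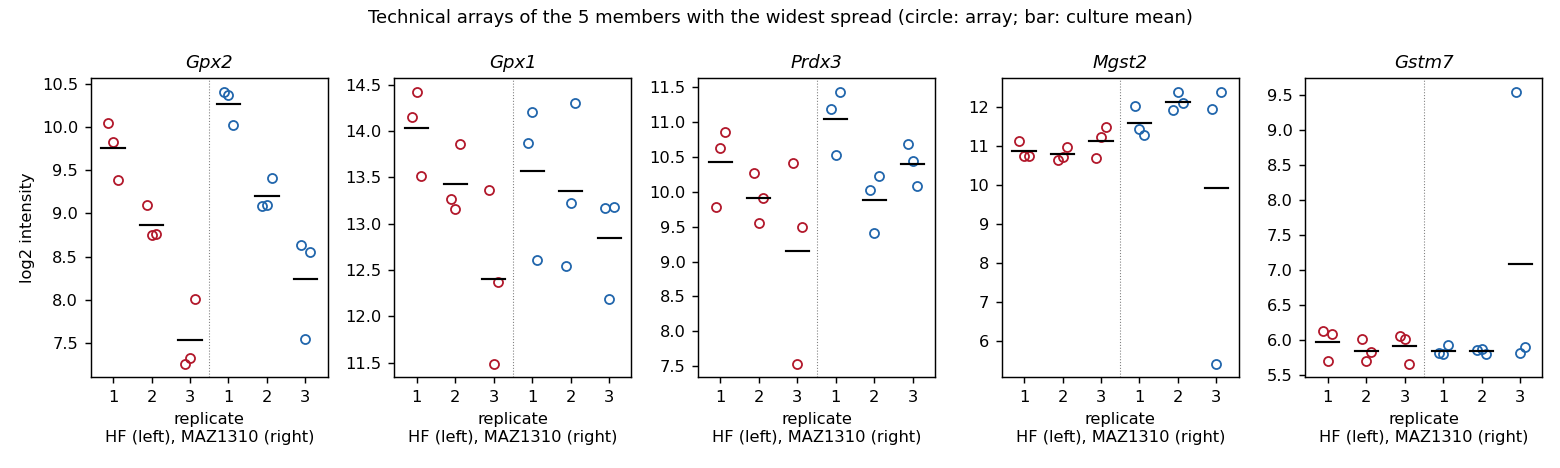
Log2 intensity (vertical axis, its own scale in each panel) on each technical array (circles) of the 5 members with the widest spread, by replicate number, HF left and MAZ1310 right of the dotted line; bars are culture means. In Gpx2 replicate 1 is the highest and replicate 3 the lowest under both treatments, while a single MAZ1310 array at 5.43 sets the mean of Mgst2 and a single one at 9.55 that of Gstm7.

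Genes around the redox set moved in both directions. Lists of neighbouring genes, 5 in all, were written from textbook roles but with earlier results of these data known. They held 64 measured genes of 72 symbols that are not members. Of these, 5 were higher (7.8%) and 6 lower (9.4%) in HF cells, where all genes gave 1.45% and 1.57%. The same all-gene shares stand beside each list that follows. Among 10 partners and regulators of Nrf2, 2 were higher and 0 lower: Cul3, the ligase scaffold that works with Keap1 (log2 fold change 0.86, limma adjusted p = 0.0467), and Nfe2l1, the related factor Nrf1 (1.11, 0.0217). Sqstm1, the autophagy receptor p62 that binds Keap1, had the largest change of that list (1.52) and did not pass (adjusted p = 0.597). Its HF cultures gave 8.61, 7.41 and 11.56 and its MAZ1310 cultures 8.04, 8.58 and 6.41, with HF replicate 3 far above the others.

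Among 13 genes of cysteine supply and glutathione turnover, 1 was higher and 0 lower. It was Chac1, an enzyme that degrades glutathione, at 12.35, 12.78 and 13.17 in HF and 10.27, 10.83 and 11.16 in MAZ1310 cells (log2 fold change 2.01, limma adjusted p = 0.0217). Slc7a11, the cystine carrier of this list, was at 1.06 and did not pass (adjusted p = 0.0829). Among 8 genes of NADPH supply, the cytosolic isocitrate dehydrogenase Idh1 was lower, at 9.56, 9.81 and 10.02 in HF and 11.99, 12.13 and 12.32 in MAZ1310 cells (-2.35, 0.00327), and Mthfd2, a mitochondrial folate enzyme, was higher (0.80, 0.0406).

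Among 13 thioredoxin and glutaredoxin genes, Txnip, the inhibitor of thioredoxin, was higher (2.11, limma adjusted p = 0.00470), and glutaredoxin Glrx (-1.46, 0.0121) and the methionine sulfoxide reductase Msrb2 (-0.96, 0.0217) were lower. Among 20 further genes, listed here as Nrf2 targets, 3 were lower and 0 higher. They were the aldo-keto reductase Akr1b8 (-1.23, adjusted p = 0.0279), the heme transporter Slc48a1 (-1.03, 0.0456) and the epoxide hydrolase Ephx1 (-0.88, 0.0236). In that list 16 of 20 log2 fold changes were below 0, with a median of -0.28, beside -0.20 for the members and -0.00197 for all genes.

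**Figure D5:**
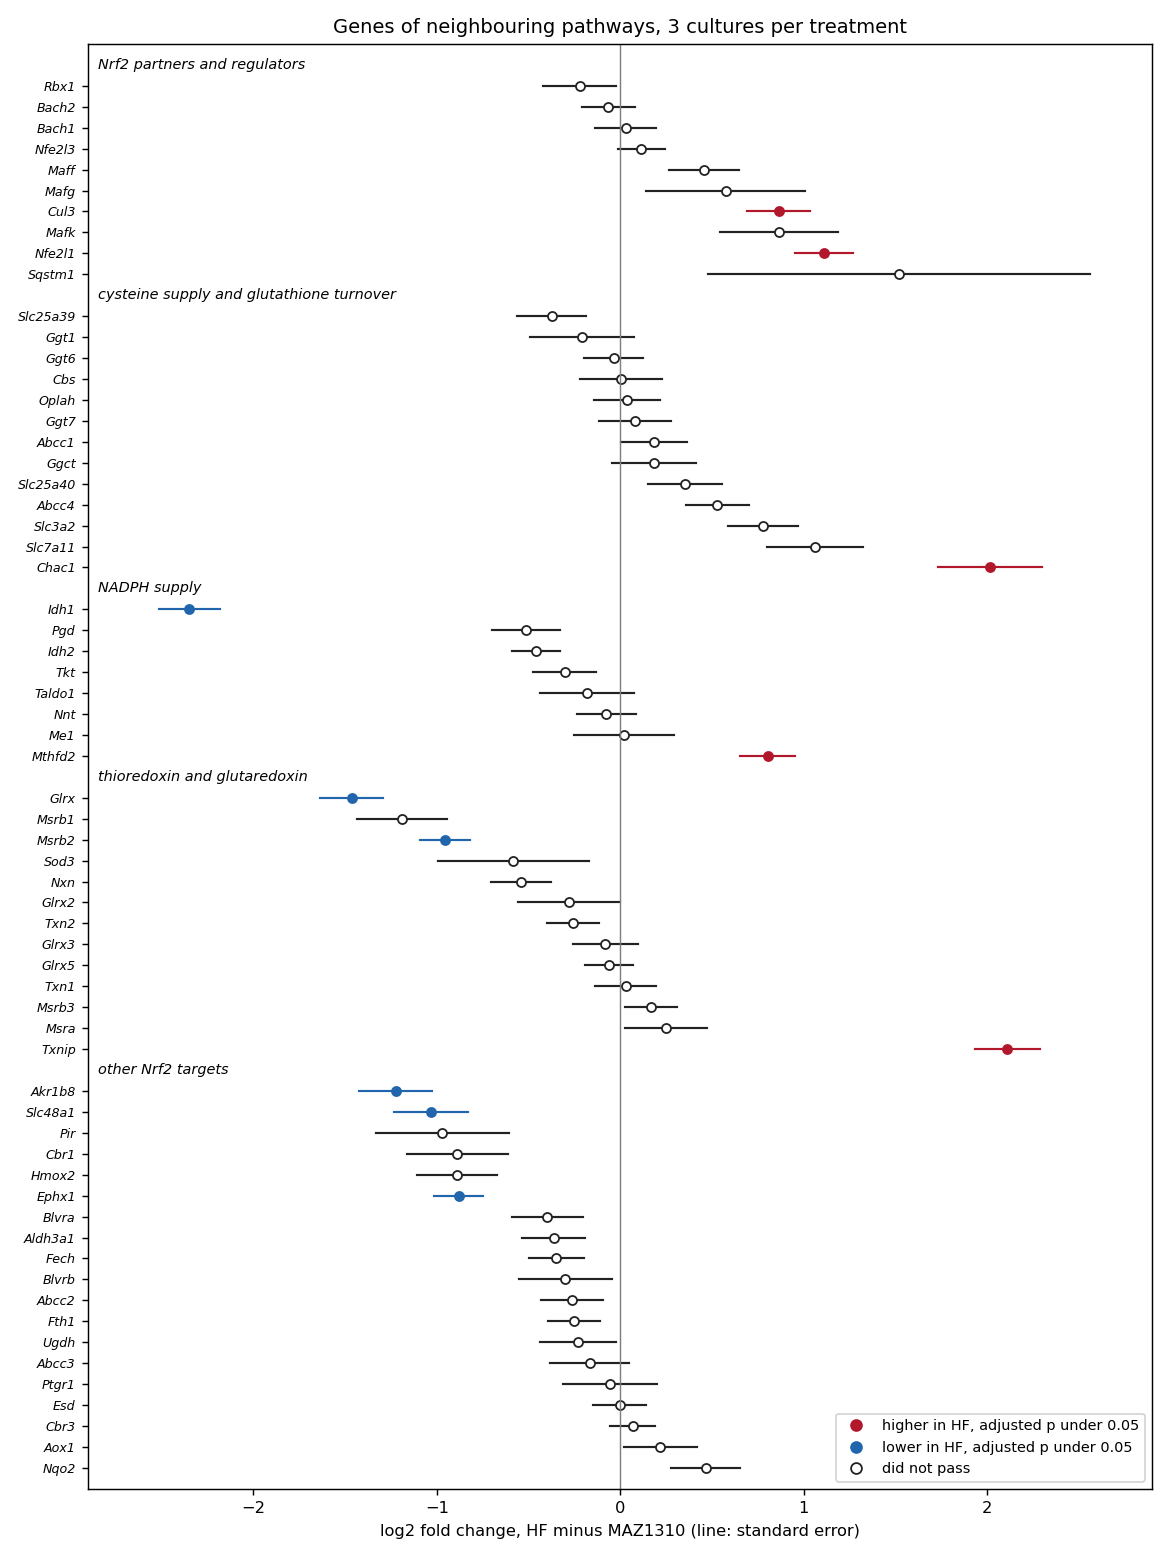
Log2 fold change (HF minus MAZ1310, horizontal axis) with its standard error for the neighbouring genes, by list, over 3 cultures per treatment; filled red is higher and filled blue lower at an adjusted p under 0.05, open did not pass. Idh1 at -2.35 and Txnip at 2.11 are the extremes; Ftl1, at the top value of the arrays, is not drawn.

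Of the 8 epithelial markers measured, 5 were among the brightest 25% of genes by mean log2 intensity: Krt8 (15.96) and Krt18 (15.97), both near the top value, Cdh1 (13.54), Krt19 (13.52) and Cldn4 (10.74). The others lay below the median of all genes, Cldn7 at 7.85, Cldn3 at 7.10 and Tacstd1, which encodes Epcam, at 6.003, among the dimmest 25%. None of the 8 passed between treatments, and neither did any of the 6 fibroblast, 5 blood, 4 endothelial or 5 adipocyte markers, of which 0 lay among the brightest 25% of genes. The blood markers Itgam (9.06) and Cd3e (8.76) and the endothelial marker Pecam1 (8.23) lay above the median of all genes (8.00). They were brighter than the epithelial Cldn7, Cldn3 and Tacstd1. Arrays correlated with each other at 0.897 to 0.987 over genes, and no culture was left out of the tests.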

How the data were processed

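Total RNA of NMuMG cells was hybridized to 1-color mouse whole-genome arrays, 3 technical arrays for each of 3 HF and 3 MAZ1310 cultures. The authors deposited linear intensities, quantile-normalized across the arrays once probes lacking a positive value somewhere had been removed; scanner settings and background correction are not given in the sources used here. Of the 21973 probes, 21020 had 1 gene symbol in the platform annotation, 0 had several and 953 had none. All 48 member symbols are current in RefSeq (GRCm38.p6). The median log2 intensity over a gene's probes gave 16675 genes, and technical arrays were averaged per culture. HF was compared with MAZ1310 by the two-sided moderated test of limma (version 3.58.1, under R 4.3.3; lmFit, then eBayes) in a model holding treatment alone, and p-values were adjusted over all genes by Benjamini-Hochberg at a threshold of 0.05. In simulated data with 200 changed genes the fit called 10% of 1.5-fold, 52% of 2-fold, 94% of 4-fold and 96% of 8-fold changes. Changes of 2-fold or less were thus often missed there. Precision is limited by the 3 culture means per treatment that enter the fit. Its standard error had a median of 0.178 over all genes and 0.180 over the members. For the members, the typical (median) SD was 0.229 across cultures and 0.282 across the technical arrays of a culture.

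The members and lists were chosen with earlier results of these data known. Named with values are all members past the threshold, those listed by full symbol and the 10 with the smallest p. In each role the member with the largest change and the one with the highest level were added. Of the neighbouring lists, the genes past the threshold and the one with the largest change in each are named. Slc7a11, Mgst2, Gstm7 and Gstm2 were named outside this rule, as were members with an array that stood apart. Alternatives covered array scaling, log2(value + 50), the lowest 25% of genes left out, probe and technical-array summaries, how technical arrays enter the fit, a block for the replicate number, eBayes options, Storey q-values at a lambda of 0.5 and each culture left out.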

Additional observations from a re-analysis of the deposited data

Results flagged for a closer look

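In each treatment the 9 arrays of every member were searched for 1 array standing apart from the rest by Dixon's gap test at 95%. Chance gives about 1 in 20 such groups, and 13 of 96 were found. The 9 arrays come from 3 cultures, so a culture that differs can also set an array apart. The technical array number can do so too. In every culture technical array 1 read highest for Cat, Gsr and Hmox1, which not all members shared. What same-numbered arrays have in common was not tested.

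The widest gaps were in MAZ1310 replicate 3: Mgst2 read 5.43 on technical array 2, against 11.27 on the next lowest MAZ1310 array, and Gstm7 read 9.55 on technical array 1, against 5.93 on the next highest. Without these arrays Mgst2 was at -1.03 in place of -0.28 and Gstm7 at 0.06 in place of -0.35. Technical array 1 of MAZ1310 replicate 1 was the lowest MAZ1310 array for Keap1 (9.76), Prdx5 (14.00) and Txnrd1 (13.05) and the highest for Gsto2 (13.59). In HF replicate 3, technical array 2 was the lowest HF array for Prdx3 (7.53) and Txnrd1 (11.84), and technical array 3 for Nqo1 (6.19). The other low arrays were Gsto1 at 14.76 in MAZ1310 replicate 1, Hmox1 at 12.14 in MAZ1310 replicate 2, Txnrd3 at 10.25 in HF replicate 1, and Prdx1 at 15.96 in HF replicate 1, where the probe is otherwise at the top value. None of the 6 called members had such an array.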

How the results depend on the processing

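Depth of evidence was limited by 3 cultures per treatment. Leaving out 1 culture gave 48 to 339 calls over all genes in place of 504 (fewest without HF replicate 2, most without MAZ1310 replicate 1), 1 to 5 members (0 to 1 higher, 1 to 4 lower) in place of 6, and 2 to 8 genes of the neighbouring lists in place of 11. Gsta4 held in all 6 of these fits.

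Array scaling, log2(value + 50), the dimmest 25% of genes left out, the probe summary, eBayes options and Storey q-values each kept the 6 members, with Srxn1 added by the probe mean and by q-values. The median over technical arrays gave 322 calls over all genes and 3 lower members. With 18 arrays and the culture as a random block there were 1128 calls over all genes, 7 members (6 lower, with Gclc and Srxn1 added and Cat lost) and 16 neighbouring genes, and with arrays taken as independent 2474, with 13 members (12 lower) and 21 neighbouring genes, a fit that takes technical arrays for replicates. With the replicate number as a block there were 1792 calls, 10 members (9 lower, with Gclc, Gpx2, Keap1 and Srxn1 added) and 17 neighbouring genes. Deviations of same-numbered cultures correlated at 0.672, 0.0792 and 0.690 for replicates 1, 2 and 3. HF replicate 1 with MAZ1310 replicate 3 gave -0.623, and HF replicate 3 with MAZ1310 replicate 1 -0.685. MAZ1310 replicate 2 matched HF replicate 3 best (0.265). The labels do not say what same-numbered cultures share, so the numbers were not taken to pair the cultures. Leaving out the 13 arrays that stood apart, chosen after seeing the data, added Mgst2.

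Signs under the alternatives were followed only for the members named by the rule and for Mgst2 and Gstm7. The turned signs among them all belonged to members that did not pass. Mgst3 gave -0.23 with the brightest probe and -0.28 with the probe mean. With the median over technical arrays Gpx1 was at -0.16 and Gstm7 at 0.12, and Gstm7 was at 0.0628 with those 13 arrays left out. With a culture left out, Mgst3 ran from -0.0696 to 0.19, Gpx1 from -0.34 to 0.47, Gpx2 from -1.04 to 0.0756, Nfe2l2 from -0.22 to 0.16, Nqo1 from -0.37 to 0.0665, Mgst2 from -0.93 to 0.18 and Gstm7 from -0.56 to 0.0663. The cause was not tested.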
